A study of Arabidopsis thaliana with 7 samples.

Results

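This account covers 80 nuclear genes of Arabidopsis thaliana that were dim on every array and higher at 80 than at 0 mg/L of cadmium sulfide quantum dots (CdS QDs, nanocrystals of a cadmium salt) in each of 3 lines. They were chosen from 13217 nuclear genes, each read on 1 probe set, by 2 conditions on the log2 values. The highest of a gene's 7 arrays lay at or above 4 and below 6, which 3504 genes met, and the difference of 80 minus 0 mg/L was at least 1 in WT, atnp01 and atnp02. Both conditions were met by 83 genes, 2.37% of the 3504, and BHLH101, COR15A and AT1G53540 were left out by name, as was THI2.1, which met only the first condition. The 7 groups, with 1 array each, were seedlings of the lines atnp01 and atnp02 on 80 and on 0 mg/L, and of WT on 0, 40 and 80 mg/L, all of accession Ler-0. All had grown for 14 days without QDs and then for 21 days on the test medium. The mutants carry the labels' description of resistant or tolerant to CdS QDs, and 80 mg/L is labelled as the MIC of WT. The sources used here name neither the genes altered in them nor the number of plants behind an RNA sample. No group had a replicate, so a level, or a difference of 1 array from another, has no error estimate and no test, and only the line effects over both doses, near the end, have one.

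A plant exposed to cadmium binds the metal through thiols, scavenges reactive oxygen and changes the transcription of many secreted and wall proteins. Class III peroxidases act in the wall on phenolic substrates, cytochromes P450 and methyltransferases modify specialised metabolites, and short secreted peptides are cut from precursors and perceived by receptor kinases as signals of attack. Many such genes are near silent in unstressed seedlings, and a low array value can then stand for a low transcript level or for a probe set that reads weakly. In RNA from whole seedlings, more cells of a type and more RNA per cell cannot be told apart.

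The 80 minus 0 mg/L differences chose these genes, so their sizes are given here as a description with no test. The median over the 80 genes was 1.79 in atnp01, 2.03 in atnp02 and 1.60 in WT, where the 3504 genes of the same intensity window had medians of -0.02, 0.00 and 0.00 in that order. Of these 3504 genes, 4.94% were higher by at least 1 in atnp01, 5.68% in atnp02 and 3.45% in WT, and 1.17% were lower by at least 1 in all 3 lines, against the 2.37% that were higher in all 3. The largest difference of a gene lay in atnp02 for 42 genes, in atnp01 for 26 and in WT for 12, and the smallest lay in WT for 40. For all 80 genes the 3 arrays at 80 mg/L stood above the 3 arrays at 0 mg/L, a separation that 22.5% of the window's genes also showed and that the choice largely fixed. Of the 0 mg/L values, the lowest was 0.67, and 24 genes had at least 1 below 2, a level at which the size of a difference is not exact. For 5 genes such a value lay below its array's lower quartile, which ranged from 1.29 to 1.36. With values under 3 set to 3, 51 of the 80 genes still met both conditions.

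**Figure D1:**
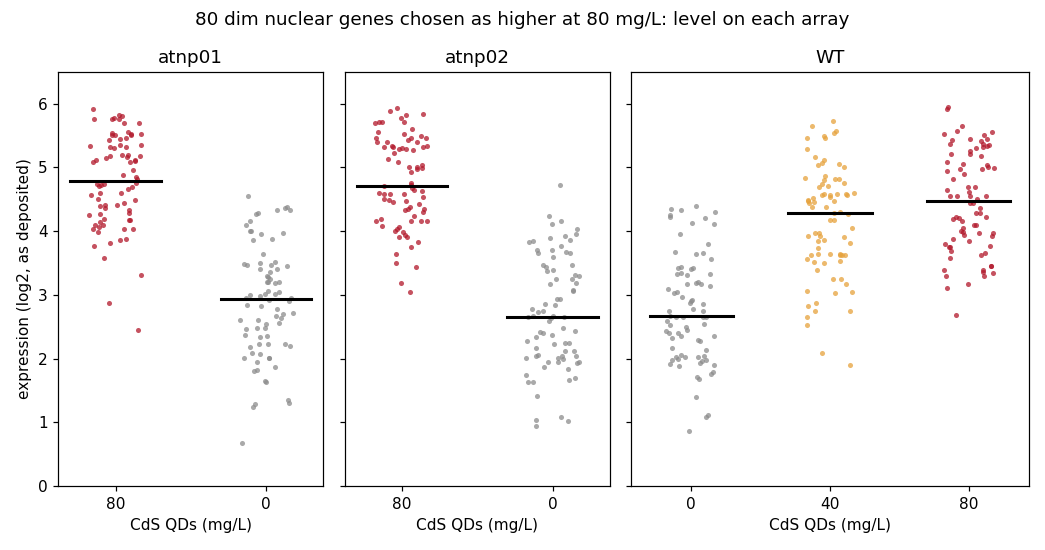
Level of each of the 80 genes (1 point per gene, log2 as deposited) on each of the 7 arrays, with black bars at the medians, which lie at 4.79 at 80 mg/L and 2.94 at 0 mg/L in atnp01, and at 4.71 and 2.66 in atnp02. In WT the medians lie at 2.66, 4.29 and 4.48 at 0, 40 and 80 mg/L.

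Whether WT differed between doses like the mutants could also be read on genes chosen on the mutant arrays alone. This choice used no WT array, but it reused the mutant differences of the rule. On these 4 arrays, 3457 genes had a highest value at or above 4 and below 6, and 130 of them, after the same genes were left out by name, differed by at least 1 in both atnp01 and atnp02. In WT, 81 of the 130 (62.3%) were higher by at least 1 at 80 than at 0 mg/L, against 3.41% of the 3457 genes. The median WT difference of the 130 was 1.19, 128 of them were above 0, and the lowest was -0.02. At 40 against 0 mg/L in WT, 73 of the 130 (56.2%) were higher by at least 1, against 3.44% of the 3457, with a median of 1.16. Of the 80 genes described here, 77 were among the 130, and by the rule all 77 lie within the 81. The other 53 of the 130 were no members, and 49 of the 130 differed by less than 1 in WT at 80 against 0 mg/L. The shares of 62.3% and 56.2% thus describe the 130 genes and are no separate support for the 80. The 2 WT differences share the 0 mg/L array, each compares single arrays, and no test of them was run.

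**Figure D2:**
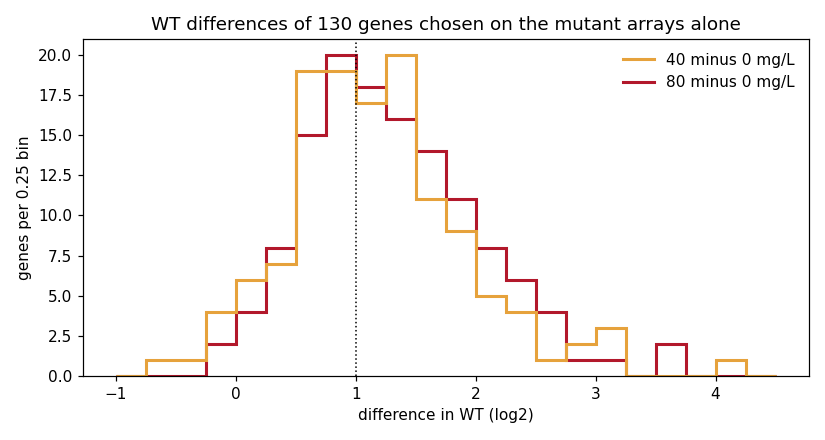
Number of genes per bin of the WT difference (log2) for the 130 genes chosen on the mutant arrays alone, at 40 minus 0 mg/L (orange) and 80 minus 0 mg/L (red). Both outlines lie mainly above 0, with medians of 1.16 and 1.19, and the dotted line marks a difference of 1.

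The 40 mg/L array of WT entered the rule only through the ceiling and floor on the highest array. On it 57 of the 80 genes (71.2%) were at least 1 above 0 mg/L, against 3.62% of the window, with a median difference of 1.40. With values under 3 set to 3, a floor that shortens differences from dim values, the count was 37. None was lower by at least 1, where 2.14% of the window was. The 0 mg/L array was part of the choice, so this share is a description. As a percentage of the distance between 0 and 80 mg/L in WT, the level at 40 mg/L had a median position of 83.6% over the 80 genes. It was 93.3% over the 81 brighter nuclear genes (highest array at or above 6) that passed the same differences in all 3 lines. The 40 mg/L level exceeded the 80 mg/L level for 25 of the 80 genes (31.2%) and for 33 of the 81 brighter genes (40.7%), and the difference between the sets was not tested. It did so for 1665 of the 3504 genes of the window. Both sets were chosen to be high at 80 mg/L, so these counts are a description. At 80 against 40 mg/L, 14 genes (17.5%) were higher by at least 1, against 0.828% of the window, and 2 genes (2.5%, against 0.771%) were lower by at least 1, which were AT1G16950 and DFR. AT1G16950 reached 4 only on the WT array at 40 mg/L, so its lower level at 80 mg/L was partly set by the choice. Among the 14, AT1G10770 and AT4G33985 reached 4 only on the WT array at 80 mg/L, with the same limit.

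For 9 genes the WT level at 40 mg/L stayed within 0.50 of the level at 0 mg/L, a group picked after its values were seen. AT4G30650, of a family of small membrane proteins responsive to low temperature and salt, was in WT at 3.32 at 0 mg/L, 2.87 at 40 mg/L and 5.43 at 80 mg/L. It was at 5.51 in atnp01 and 5.93 in atnp02 at 80 mg/L, against 3.47 in atnp01 and 3.60 in atnp02 at 0 mg/L. The 40 mg/L array was thus the lowest of the 7 for this gene. PDF2.1, a plant defensin gene, was at 4.41 in atnp01, 4.92 in atnp02 and 4.55 in WT at 80 mg/L, against 2.22 in atnp01, 2.47 in atnp02 and 1.99 in WT at 0 mg/L, and at 1.90 in WT at 40 mg/L. The same pattern was seen in AT2G47890, which encodes a B-box zinc-finger protein of the CONSTANS-like family, and AT2G16365, which encodes the phytochrome B-binding protein PCH1. In WT AT2G47890 was at 3.67 at 0 mg/L, 3.63 at 40 mg/L and 5.09 at 80 mg/L, and at 80 mg/L it was at 5.11 in atnp01 and 4.99 in atnp02, against 3.88 and 3.67 in the same lines at 0 mg/L. AT2G16365 was at 5.69 in atnp01, 5.60 in atnp02 and 5.91 in WT at 80 mg/L, against 4.29 in atnp01, 4.12 in atnp02 and 4.23 in WT at 0 mg/L, and at 4.26 in WT at 40 mg/L. Both light-signalling genes were therefore at 40 mg/L within 0.05 of their 0 mg/L level, and more than 1 below their 80 mg/L level.

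The other 5 genes of this kind were AT4G33985 and AT1G11210, for which no function is given here, the saccharopine dehydrogenase family gene AT5G39410, AT1G22570 of the nitrate and peptide transporter (NPF) family, and the expansin-like gene EXLB1. Their WT levels at 40 mg/L were 2.82 for AT4G33985, 3.91 for AT1G11210, 3.85 for AT5G39410, 3.63 for AT1G22570 and 4.28 for EXLB1, and each was above its 0 mg/L level by between 0.05 and 0.32. At 80 mg/L the WT levels were 4.17 for AT4G33985, 5.37 for AT1G11210, 5.58 for AT5G39410, 5.37 for AT1G22570 and 5.26 for EXLB1. Of these 5, all but EXLB1, at 0.98, were higher by at least 1 at 80 than at 40 mg/L in WT. AT4G33985 reached 4 only on the WT array at 80 mg/L, so its difference was partly set by the choice. AT4G33980, the gene next to AT4G33985 in the gene order and itself below the floor of 4, was in WT at 1.19 at 0 mg/L, 1.35 at 40 mg/L and 3.58 at 80 mg/L.

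**Figure D3:**
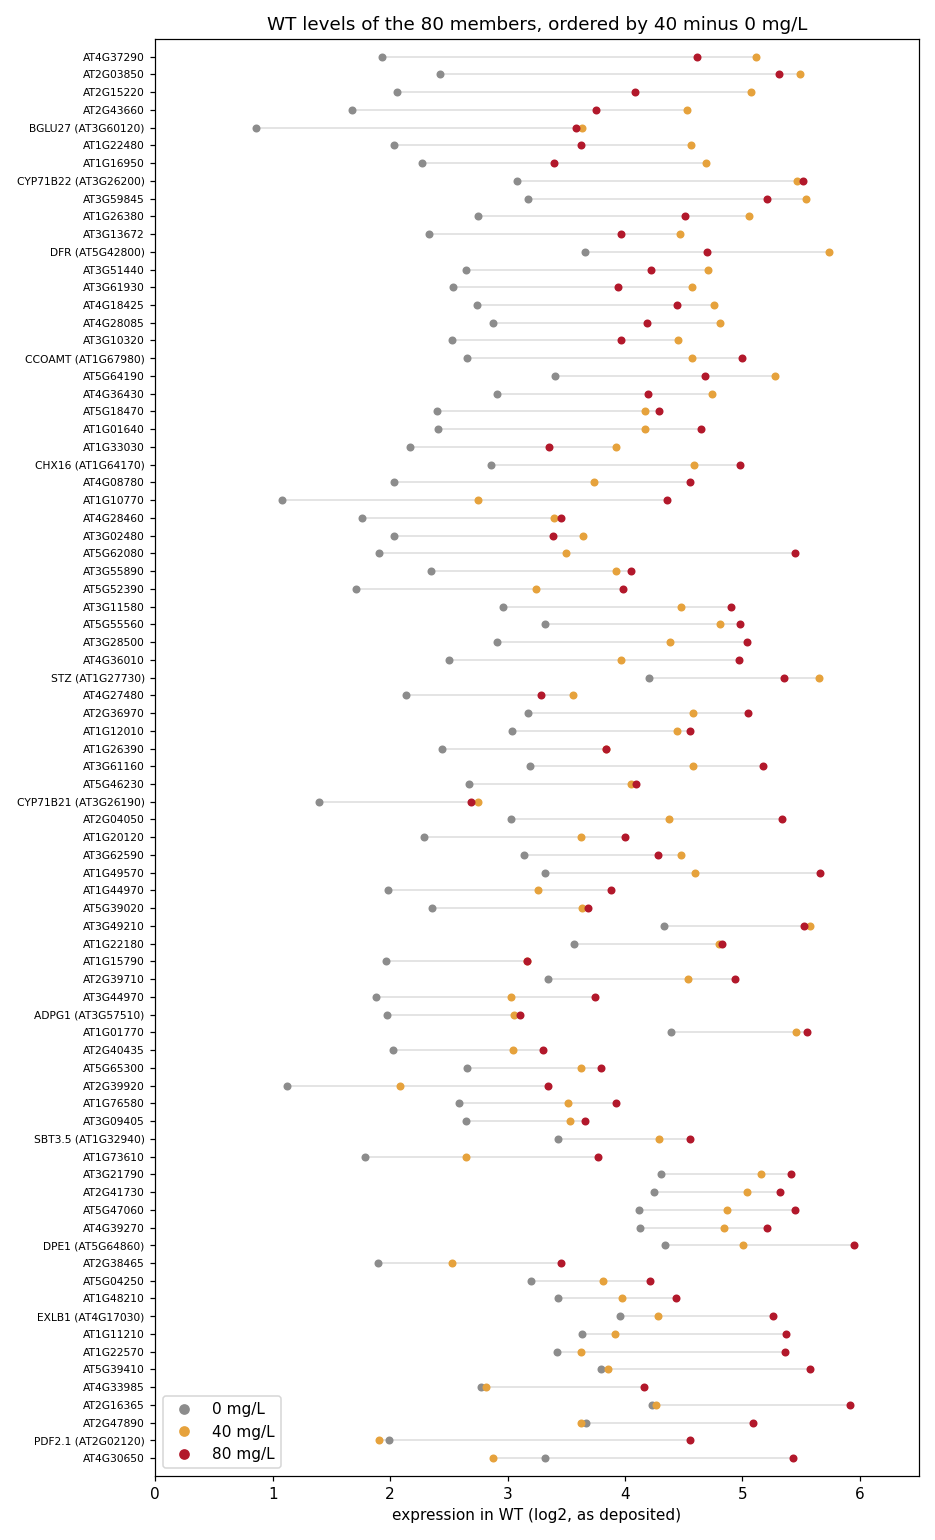
WT level (log2 as deposited) of each of the 80 genes at 0 mg/L (grey), 40 mg/L (orange) and 80 mg/L (red), 1 array per dose, ordered by the difference of 40 minus 0 mg/L from high to low. Orange points lie near or beyond the red ones in the upper rows, up to a difference of 3.19, and near the grey ones in the lowest 9 rows.

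Among the 6 genes of secreted defence proteins, the highest differences were those of AT4G37290, the precursor of the immune peptide PIP2. AT4G37290 was at 4.69 in atnp01, 4.70 in atnp02 and 4.61 in WT at 80 mg/L, against 1.63 in atnp01, 1.95 in atnp02 and 1.93 in WT at 0 mg/L. Its WT level at 40 mg/L was 5.12, the highest of the 7 arrays. The precursor gene of the related peptide PIP1, AT4G28460, differed by 2.62 in atnp01, 2.05 in atnp02 and 1.70 in WT, and its WT level at 40 mg/L was 3.39. AT4G28460 reached 4 only on the atnp01 array at 80 mg/L, so its larger difference in atnp01 was partly set by the choice. With values under 3 set to 3, its WT difference of 40 minus 0 mg/L was 0.39 rather than 1.63. Both peptide precursor genes thus stood close to their WT 80 mg/L level, or above it, at 40 mg/L.

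AT4G36010, of the thaumatin-like pathogenesis-related family, was at 5.30 in atnp01, 5.46 in atnp02 and 4.97 in WT at 80 mg/L, against 3.0 in atnp01, 2.94 in atnp02 and 2.50 in WT at 0 mg/L. In WT it was at 3.96 at 40 mg/L, between the levels at 0 and 80 mg/L. AT2G15220, a basic secretory protein gene read on an _s_at probe set that may match related sequences, was at 4.19 in atnp01, 4.01 in atnp02 and 4.09 in WT at 80 mg/L, against 2.02 in atnp01, 2.17 in atnp02 and 2.06 in WT at 0 mg/L, with 5.07 in WT at 40 mg/L. For AT2G15220 the 40 mg/L array was again the highest. The mannose-binding lectin family gene AT5G18470 differed by 2.01 in atnp01, 2.70 in atnp02 and 1.89 in WT, with a WT level of 4.17 at 40 mg/L. With PDF2.1, these 6 genes had median differences of 2.25 in atnp01, 2.49 in atnp02 and 2.25 in WT.

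The set held 4 class III peroxidase genes. All 4 were higher by at least 1 at 40 than at 0 mg/L in WT, against 71.2% of the 80 genes and 3.62% of the window, and 2 of the 4 were with values under 3 set to 3. AT4G08780 was at 5.36 in atnp01, 5.0 in atnp02 and 4.55 in WT at 80 mg/L, against 2.22 in atnp01, 2.66 in atnp02 and 2.03 in WT at 0 mg/L, and at 3.73 in WT at 40 mg/L. Its neighbour Prx37, a brighter peroxidase gene and no member, was at 6.58 in atnp01, 6.43 in atnp02 and 6.08 in WT at 80 mg/L, against 3.88 in atnp01, 4.08 in atnp02 and 3.47 in WT at 0 mg/L, and at 6.15 in WT at 40 mg/L. The dim gene and its brighter neighbour thus had differences above 2 in every line, on separate probe sets of related sequences, and whether one reads the other was not tested. AT1G49570 was at 5.32 in atnp01, 5.13 in atnp02 and 5.66 in WT at 80 mg/L, against 2.67 in atnp01, 2.94 in atnp02 and 3.32 in WT at 0 mg/L, and at 4.60 in WT at 40 mg/L. It was the only peroxidase gene of the 4 whose highest array was that of WT at 80 mg/L. AT1G44970 was at 3.26 and AT4G36430 at 4.74 in WT at 40 mg/L, with 80 minus 0 mg/L differences of 1.21 in atnp01, 2.74 in atnp02 and 1.90 in WT for AT1G44970 and of 1.39 in atnp01, 1.12 in atnp02 and 1.29 in WT for AT4G36430.

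The 12 genes of specialised metabolism included 2 pairs that lie directly side by side in the gene order, the only such pairs among the 80. CYP71B22, a cytochrome P450 gene, was at 5.56 in atnp01, 5.08 in atnp02 and 5.51 in WT at 80 mg/L, against 2.78 in atnp01, 2.85 in atnp02 and 3.08 in WT at 0 mg/L, and at 5.46 in WT at 40 mg/L. CYP71B21, beside it, was at 4.17 in atnp01, 3.05 in atnp02 and 2.69 in WT at 80 mg/L, against 1.24 in atnp01, 1.02 in atnp02 and 1.39 in WT at 0 mg/L, and at 2.74 in WT at 40 mg/L. CYP71B22 thus had like differences in the 3 lines, whereas for CYP71B21 that of atnp01 was over 1.5 above that of WT, from values near background. CYP71B21 reached 4 only on the atnp01 array at 80 mg/L, so this gap was partly set by the choice. Of the berberine bridge enzyme-like oxidase genes, AT1G26380 (FOX1, of indole-derived defence compounds) was at 5.47 in atnp01, 5.30 in atnp02 and 4.51 in WT at 80 mg/L, against 2.54 in atnp01, 1.75 in atnp02 and 2.75 in WT at 0 mg/L, and at 5.05 in WT at 40 mg/L. AT1G26390 differed by 2.40 in atnp01, 3.77 in atnp02 and 1.40 in WT, from a 0 mg/L value of 0.94 in atnp02, and its WT values at 40 and 80 mg/L were identical at 3.84. For both oxidase genes the difference was highest in atnp02, which had their lowest level at 0 mg/L. AT1G26390 reached 4 only on the 80 mg/L arrays of atnp01 and atnp02, so its differences there were partly set by the choice.

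CCOAMT, a caffeoyl-CoA O-methyltransferase gene of phenylpropanoid metabolism, was at 5.77 in atnp01, 5.46 in atnp02 and 5.0 in WT at 80 mg/L, against 2.95 in atnp01, 2.24 in atnp02 and 2.66 in WT at 0 mg/L. Its WT level at 40 mg/L was 4.57. DFR, the dihydroflavonol reductase gene of anthocyanin synthesis, was at 5.09 in atnp01, 4.35 in atnp02 and 4.70 in WT at 80 mg/L, against 2.71 in atnp01, 2.65 in atnp02 and 3.66 in WT at 0 mg/L, and at 5.74 in WT at 40 mg/L. In WT the DFR level at 40 mg/L was thus 2.07 above that at 0 mg/L, while the level at 80 mg/L was 1.04 above it. UF3GT, an anthocyanin glycosyltransferase gene of the same window and no member, was in WT at 2.89 at 0 mg/L, 4.11 at 40 mg/L and 3.32 at 80 mg/L. It reached 4 only on the WT array at 40 mg/L, which alone brought it into the intensity window.

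In the remaining genes of specialised metabolism the WT levels at 40 mg/L were 3.03 for the P450 family gene AT3G44970, 3.93 for the O-methyltransferase family gene AT1G33030, 5.54 for the zinc-binding dehydrogenase family gene AT3G59845 and 4.70 for the strictosidine synthase-like gene AT3G51440. The UDP-glycosyltransferase family genes AT2G36970 and AT3G21790 were at 4.58 and 5.16. Over the 12 genes, 6 were above their WT 80 mg/L level at 40 mg/L, against 25 of the 80 genes and 1665 of the 3504 of the window. At 40 against 0 mg/L in WT, 11 were higher by at least 1, AT3G21790 being the exception at 0.85. The 11 were 91.7% of the group, against 71.2% of the 80 genes and 3.62% of the window, and with values under 3 set to 3 the count was 7.

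**Figure D4:**
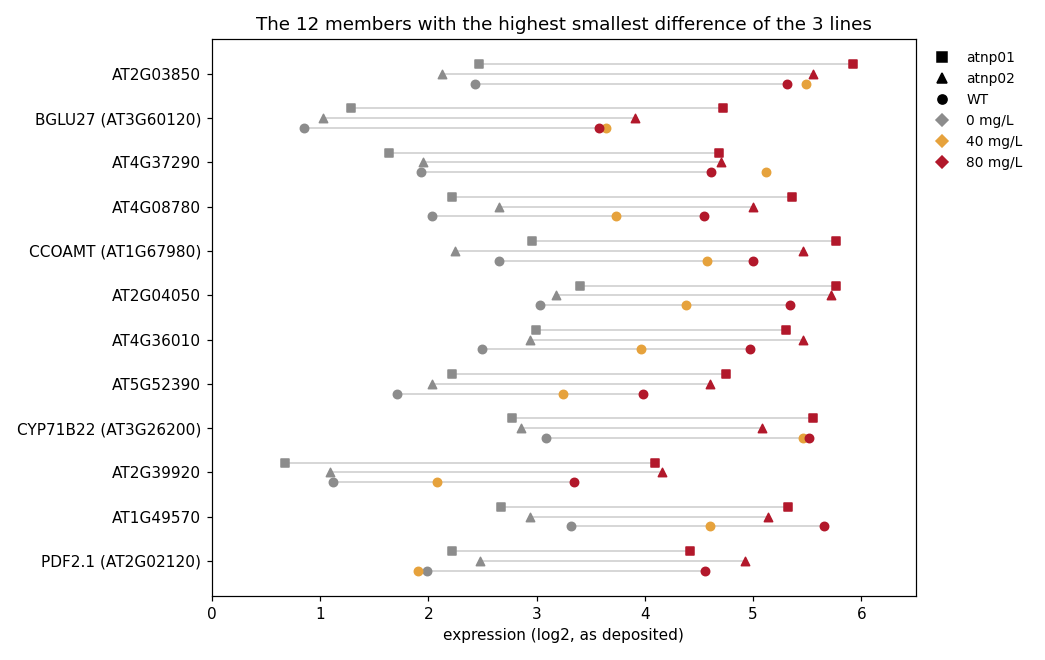
Levels (log2 as deposited) on all 7 arrays of the 12 genes with the highest smallest difference of the 3 lines, squares for atnp01, triangles for atnp02 and circles for WT, in red at 80, orange at 40 and grey at 0 mg/L. Each red symbol lies at least 2.19 to the right of the grey one of its line, and the orange circle of PDF2.1 lies left of its grey one.

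Of the genes of stress protection, AT2G03850, which encodes a late embryogenesis abundant (LEA) protein, a class that accumulates in drying seeds and under water deficit, had the highest smallest difference of the 80. AT2G03850 was at 5.92 in atnp01, 5.56 in atnp02 and 5.31 in WT at 80 mg/L, against 2.47 in atnp01, 2.12 in atnp02 and 2.43 in WT at 0 mg/L. Its WT level at 40 mg/L was 5.49, so that all 4 arrays with QDs stood at 5.31 or above and the 3 without at 2.47 or below. The LEA family gene AT3G02480 was at 4.66 in atnp01, 4.76 in atnp02 and 3.38 in WT at 80 mg/L, against 2.92 in atnp01, 2.05 in atnp02 and 2.04 in WT at 0 mg/L, and at 3.64 in WT at 40 mg/L. At 80 mg/L it was higher than in WT by 1.28 in atnp01 and 1.38 in atnp02. AT3G02480 reached 4 only on these 2 mutant arrays, so the gaps were partly set by the choice.

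The 11 genes of wall and extracellular functions had median differences of 1.72 in atnp01, 2.22 in atnp02 and 1.44 in WT. BGLU27, a beta-glucosidase gene, was at 4.73 in atnp01, 3.91 in atnp02 and 3.58 in WT at 80 mg/L, against 1.29 in atnp01, 1.03 in atnp02 and 0.86 in WT at 0 mg/L, and at 3.64 in WT at 40 mg/L. Its 0 mg/L values were near background in all 3 lines, and the size of its differences is not exact. BGLU27 reached 4 only on the atnp01 array at 80 mg/L, so its larger difference in atnp01 was partly set by the choice. AT2G43660, of a family with a carbohydrate-binding X8 domain, was at 3.85 in atnp01, 4.50 in atnp02 and 3.75 in WT at 80 mg/L, against 1.87 in atnp01, 1.87 in atnp02 and 1.67 in WT at 0 mg/L, and at 4.53 in WT at 40 mg/L, its highest array. ADPG1, a polygalacturonase gene of cell separation, was at 4.51 in atnp01, 5.29 in atnp02 and 3.10 in WT at 80 mg/L, against 1.80 in atnp01, 2.05 in atnp02 and 1.97 in WT at 0 mg/L. At 80 mg/L ADPG1 was above WT by 1.41 in atnp01 and 2.18 in atnp02, and its WT level at 40 mg/L was 3.05. It reached 4 only on the 80 mg/L arrays of atnp01 and atnp02, so these gaps were partly set by the choice.

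AT1G10770, of the invertase and pectin methylesterase inhibitor family, was at 2.87 in atnp01, 3.94 in atnp02 and 4.36 in WT at 80 mg/L, against 1.35 in atnp01, 1.67 in atnp02 and 1.08 in WT at 0 mg/L, and at 2.75 in WT at 40 mg/L. It was one of 12 genes with their largest difference in WT. AT1G10770 reached 4 only on the WT array at 80 mg/L, so the size of its WT difference was partly set by the choice. The other WT levels at 40 mg/L were 4.54 for the aspartyl protease family gene AT2G39710, 4.29 for the subtilisin-like protease gene SBT3.5, 4.56 for the cupredoxin family gene AT1G22480 and 3.54 for the pectin acetylesterase family gene AT3G09405. The glycosyltransferase genes AT3G10320, of seed-coat mucilage, and AT4G27480, of the core-2/I-branching family, were at 4.45 and 3.56. Of the 11 genes, 5 were above their WT 80 mg/L level at 40 mg/L, against 25 of the 80 genes and 1665 of the 3504 of the window. At 40 against 0 mg/L in WT, 8 (72.7%) were higher by at least 1, near the 71.2% of the 80 genes (3.62% of the window). With values under 3 set to 3, the 8 became 4.

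Among 5 genes of lipid functions, AT5G62080 of the lipid transfer protein family was at 4.39 in atnp01, 4.34 in atnp02 and 5.45 in WT at 80 mg/L, against 3.05 in atnp01, 1.69 in atnp02 and 1.91 in WT at 0 mg/L, and at 3.50 in WT at 40 mg/L. It was the only gene of the 80 that was lower than WT by at least 1 at 80 mg/L in both mutants, and the only one higher than WT by at least 1 at 0 mg/L in atnp01. A9, an anther marker of the same protein superfamily that stayed below 4, was at 2.76 in atnp01, 3.26 in atnp02 and 3.86 in WT at 80 mg/L, against 1.62 in atnp01, 1.48 in atnp02 and 1.75 in WT at 0 mg/L, and at 2.66 in WT at 40 mg/L. AMS, the other measured entry of 8 flower and anther markers, stayed at 1.1 or below on all 7 arrays. The part of flower tissue in the value of AT5G62080 was not tested. The GDSL lipase family genes AT1G20120 and AT1G73610 were at 3.63 and 2.65 in WT at 40 mg/L, the wax ester synthase family gene AT3G49210 at 5.58 and the plastid lipase gene AT3G62590 at 4.48.

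Of 4 transport genes, AT2G04050, of the MATE family of efflux carriers, was at 5.77 in atnp01, 5.72 in atnp02 and 5.34 in WT at 80 mg/L, against 3.40 in atnp01, 3.18 in atnp02 and 3.03 in WT at 0 mg/L. Its WT level at 40 mg/L, 4.38, lay between those at 0 and 80 mg/L. CHX16, a cation/H+ exchanger gene, was at 4.59 in WT at 40 mg/L, with differences of 1.88 in atnp01, 1.62 in atnp02 and 2.12 in WT, and the Sec14-like lipid transfer gene AT1G22180 was at 4.80. AT1G22570 of the NPF family was given above.

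The set held 9 genes of transcription, light signalling and protein turnover and 5 protein kinase genes. AT1G01640, which encodes a BTB/POZ-domain protein, was at 5.18 in atnp01, 5.34 in atnp02 and 4.65 in WT at 80 mg/L, against 3.29 in atnp01, 3.32 in atnp02 and 2.41 in WT at 0 mg/L, and at 4.17 in WT at 40 mg/L. STZ, a zinc-finger repressor gene of salt and drought responses, was at 5.75 in atnp01, 5.46 in atnp02 and 5.35 in WT at 80 mg/L, against 4.01 in atnp01, 3.29 in atnp02 and 4.21 in WT at 0 mg/L, and at 5.65 in WT at 40 mg/L. AT1G01640 was thus lower in WT than in both mutants at either dose, whereas STZ at 0 mg/L was lowest in atnp02.

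Of the other regulators, the WT levels at 40 mg/L were 4.48 for the B3-domain factor gene AT3G11580, 3.52 for AT1G76580 of the SQUAMOSA promoter-binding family, 4.47 for the TRAF-like gene AT3G13672 (SINA2), 3.93 for the Yippee family gene AT3G55890 and 4.87 for AT5G47060, of the FLZ zinc-finger family. Of the kinase genes, the shaggy-like AT3G61160 was at 4.58, the malectin-like receptor kinase gene AT5G39020 at 3.63, the leucine-rich repeat kinase gene AT4G39270 at 4.84, AT5G55560 at 4.81 and AT1G48210 at 3.98. None of the 5 kinase genes was above its WT 80 mg/L level at 40 mg/L, against 25 of the 80 genes and 1665 of the 3504 of the window. At 40 against 0 mg/L, 3 of the 5 (60%, against 71.2% of the 80 genes and 3.62% of the window) were higher by at least 1, or 2 with values under 3 set to 3.

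Among 8 genes of other functions, AT5G52390, of the PAR1 family, was at 4.75 in atnp01, 4.60 in atnp02 and 3.98 in WT at 80 mg/L, against 2.22 in atnp01, 2.04 in atnp02 and 1.71 in WT at 0 mg/L, and at 3.25 in WT at 40 mg/L. AT2G39920, an acid phosphatase-like gene, was at 4.09 in atnp01, 4.16 in atnp02 and 3.35 in WT at 80 mg/L, against 0.67 in atnp01, 1.09 in atnp02 and 1.12 in WT at 0 mg/L, and at 2.08 in WT at 40 mg/L. Both stood at an intermediate WT level at 40 mg/L, and the 0 mg/L values of AT2G39920 were near background. AT1G12010, an ACC oxidase gene of ethylene synthesis, was at 4.44 in WT at 40 mg/L, and at 80 mg/L it was above WT by 1.16 in atnp02 and by 0.30 in atnp01. DPE1, the plastid disproportionating enzyme gene of starch breakdown, was at 5.0, the stalk ribosomal protein gene AT3G28500 at 4.38, the DMP-family membrane protein gene AT4G18425 at 4.76 and the OTU-type cysteine protease gene AT5G04250 at 3.81.

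For 13 genes no function is given here. Besides AT4G33985 and AT1G11210, their WT levels at 40 mg/L ranged from 2.53 for AT2G38465 to 5.46 for AT1G01770. AT3G61930 was at 4.57, AT4G28085 at 4.81, AT5G64190 at 5.28 and AT1G16950 at 4.69, and in WT each of these 4 was lower at 80 than at 40 mg/L, AT1G16950 most. AT1G16950 was in WT at 2.27 at 0 mg/L, 4.69 at 40 mg/L and 3.39 at 80 mg/L. It reached 4 only on the WT array at 40 mg/L, which alone brought it into the intensity window. AT2G40435, which was above WT at 80 mg/L by 1.46 in atnp01 and 1.08 in atnp02, was at 3.05 in WT at 40 mg/L. It reached 4 only on the 80 mg/L arrays of atnp01 and atnp02, so these gaps were partly set by the choice. The remaining 4 were at 3.17 for AT1G15790, 3.63 for AT5G65300, 5.04 for AT2G41730, on an _x_at probe set that may match other sequences, and 4.05 for AT5G46230.

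Between the lines, 5 of the 80 genes (6.25%) were higher by at least 1 in atnp01 than in WT at 80 mg/L and 4 (5.0%) were lower, against 0.713% and 0.913% of the window. In atnp02 5 genes (6.25%) were higher and 1 (1.25%) lower than in WT at 80 mg/L, against 0.713% and 0.457%. The median over the 80 genes was 0.33 in both comparisons. It was 0.24 in atnp01 and 0.15 in atnp02 over the 81 brighter genes, and 0.00 and -0.02 over the window. The arrays at 0 and 80 mg/L were part of the choice, so the shares and medians between lines are a description. ADPG1, AT3G02480 and AT2G40435 were the 3 genes at least 1 higher in both mutants. These 3 reached 4 only on the 80 mg/L arrays of the mutants, as did AT1G15790, counted as higher in atnp02. BGLU27 and CYP71B21, counted as higher in atnp01, reached 4 only on its 80 mg/L array. The shares of genes higher in the mutants were thus partly set by the choice. At 0 mg/L only AT5G62080 was higher by at least 1 in atnp01 (1.25% of the 80 genes, against 0.257% of the window) and none was lower, where 0.371% of the window was. None was higher by at least 1 in atnp02 at 0 mg/L, where 0.0571% of the window was, while AT1G26380, AT1G26390 and DFR were lower by at least 1 there (3.75%, against 0.171%).

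A line effect over both doses was tested with limma over 5588 genes that reached 4 on some array. Its coefficient does not rest on the 80 minus 0 mg/L differences. Its SE and p do, since the residual is how these differences vary between the lines, and the rule cut them at 1. The shares of the 80 genes past a p threshold are therefore not free of the choice. The coefficients are not free of it either, since the intensity window was set on the highest of these levels. The model had terms for line and for dose and took in 6 arrays, all but that of WT at 40 mg/L. None of the 80 genes passed an adjusted p of 0.05 in either mutant, where 0.304% of all genes tested passed in atnp01 and 0.0537% in atnp02. At an unadjusted p under 0.05, 16 of the 80 (20%) stood apart in atnp01, against 9.45% of all genes, and 13 (16.2%) in atnp02, against 6.62%. The smallest adjusted p was 0.179 in atnp01 and 0.25 in atnp02, both for AT1G01640, with coefficients of 0.71 in atnp01 and 0.80 in atnp02 (SE 0.15 each). The median coefficient of the 80 genes was 0.22 in atnp01 and 0.11 in atnp02, with a median SE of 0.22. Over all genes tested it was 0.02 in atnp01 and -0.02 in atnp02. The coefficients past 1 were those of AT2G40435 in atnp01 (1.23, SE 0.32, adjusted p 0.283), AT3G02480 in atnp01 (1.08, SE 0.34, adjusted p 0.382) and ADPG1 in atnp02 (1.13, SE 0.48, adjusted p 0.757) in limma. Only 2 degrees of freedom were left for the error of a gene, before its moderation across genes. With no term for line by dose, a line difference limited to 1 dose is averaged over both and enlarges the SE, so the fit cannot test it. ADPG1 in atnp02 was above WT by 0.08 at 0 mg/L and 2.18 at 80 mg/L. In atnp01 the gaps at 0 and 80 mg/L were 1.00 and 1.46 for AT2G40435, and 0.89 and 1.28 for AT3G02480. ADPG1, AT2G40435 and AT3G02480 reached 4 only on the 80 mg/L arrays of the mutants, so these gaps and coefficients were partly set by the choice.

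The edges of the choice were close. AT1G48210, AT3G09405 and AT5G04250 had the smallest differences inside it, at 1.005, 1.011 and 1.014, and AT3G03270, the chitinase gene ChiC and AT5G45060 lay just outside at 0.997, 0.990 and 0.988. By intensity, AT3G44970 and AT5G39020 had their highest array at 4.03 and AT3G54150 and AT5G43440 at 3.98 and 3.96. At the upper edge DPE1 reached 5.95 and AT4G30650 5.93, while AT5G51570 reached 6.02 and AT1G47400, of the iron-deficiency response, 6.06.

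The 80 genes were spread over the 5 chromosomes, with 28.8% on chromosome 1, 16.2% on 2, 23.8% on 3, 15.0% on 4 and 16.2% on 5, where the window had 27.2%, 13.8%, 21.3%, 14.0% and 23.8%. Of 85 directly neighbouring genes that were measured, counted once per member and side, 7 (8.24%) were at least 1 higher in all 3 lines, against 1.42% of the 13217 nuclear genes, 4 of them being members of the adjacent pairs CYP71B21 with CYP71B22 and AT1G26380 with AT1G26390. The other 3, of 81 entries that are no members (3.7%), were Prx37, AT4G33980 and AT1G76590, beside AT1G76580. The median WT difference of the 85 neighbours was 0.05.

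Of 14 lists of pathway and tissue genes, 34 of the 191 entries were annotated here and 11 lay in the intensity window. The anthocyanin list had 2 genes in the window, DFR and UF3GT, and only DFR was among the 80. The window also held 3 genes of the list of mitochondrial retrograde signalling and detoxification, 2 of iron deficiency, 2 of heat shock, 1 of cold and drought and 1 of jasmonate and ethylene defence. The lists of sulfur limitation, metal transport, senescence, root and flower markers had measured genes but none in the window. BHLH101, COR15A and AT1G53540, of the iron-deficiency, cold and heat-shock lists, met both conditions but were left out by name. For salicylate defence, phosphate starvation and seed storage no entry could be named here. The root marker PYK10 stayed between 10.23 and 10.70 on all 7 arrays. Poly-A spike-in controls, added to RNA before amplification, were lower at 80 than at 0 mg/L by a mean of 0.72 in atnp01, 0.48 in atnp02 and 0.40 in WT, and at 40 than at 0 mg/L by 0.33 in WT. Their part in the differences of the 80 genes was not tested.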

How the data were processed

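Each of the 7 groups of seedlings was measured on 1 Affymetrix ATH1 array, which limits how precise any value can be. The deposited values are log2 expression per probe set, and per the submitters' processing notes the software was Affymetrix Expression Console 1.1 with RMA. No source used here records the background step or any later step, so a log2 difference of 1 need not be exactly 2-fold.

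Of 22810 probe sets, 64 were controls, 13513 had 1 gene on the platform annotation, 503 had several and 8730 were unnamed here. The gene table of assembly TAIR10.1 matched 13436 of the 13513, which gave 13217 nuclear genes, each read on its probe set of highest mean over the 7 arrays. The tables give a symbol for 12 of the 80 members, and the functions given for 67 are general knowledge of these loci. The members and gene lists were chosen with earlier results of these data known, and the function groups were drawn up after their values were seen. All members were named. All 7 arrays were given for the 12 with the highest smallest difference and the 4 highest and 4 lowest at 40 minus 0 mg/L in WT, and for further members chosen after their values were seen.

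Line effects were tested in limma 3.58.1 under R 4.3.3, with trended empirical Bayes variances, and p-values were adjusted by Benjamini-Hochberg over all genes tested. On simulated data for atnp01 minus WT, with 200 of 5588 genes changed, 98% of changes of log2 1 and 100% of those of 2 were found, with 5.26% false among the calls, at a noise equal to the variance estimated by the fit. These rates average over all genes tested and need not hold for dim genes with a larger SE. Python 3.11.15 and pandas 2.3.3 were used for all other steps. A planned count of promoter motifs was not run, since promoter sequences were not used here. The alternatives were quantile and cyclic loess normalization, floors on low values, other thresholds and probe-set rules, and limma without the trend, with other filters or without each array.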

Additional observations from a re-analysis of the deposited data

How the results depend on the processing

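The count of 80 genes was 76 after quantile normalization and 84 after cyclic loess, with 76 and all 80 of the original genes kept. It was 51 with values under log2 3 set to 3, all of them among the 80, 129 with a difference of 0.8 in each line and 32 with one of 1.5. With that floor of 3, 37 rather than 57 genes were higher by at least 1 at 40 than at 0 mg/L in WT, since the floor shortens differences from low values. The counts of genes higher at 80 than at 40 mg/L, and of WT responses among genes chosen on the mutants alone, stayed within 1.5 times under both normalizations and the floor of 3. The WT responses still fell with that floor, from 81 of 130 chosen genes to 55 of 114 at 80 mg/L. At 40 mg/L they fell from 73 of 130 to 51 of 114. No line effect passed in limma for any member tested under the 12 alternatives, including each fit without 1 array (0 in each). All 80 were tested in 11 of these and 44 in the one limited to genes reaching log2 5, and the smallest adjusted p lay between 0.101 and 0.569. A fit without 1 array left that line with a lone array, assumed to vary like the others. The limma model, with line as a term, already sets the 80 and 0 mg/L arrays of a line against each other. No further pairing could be fitted because the labels give no replicate numbers that could add a further block. Of the 80 single-gene differences at 40 minus 0 mg/L in WT, none changed sign past a size of 1, 1 crossed that size after quantile normalization and 20 did with the floor of 3.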
